A study of Mus musculus with 6 samples.

Results

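The protein kinase C (PKC) and protein kinase D (PKD) isoforms were followed in mouse islets in which Sox17 was switched on in β cells for 24 hours. The 9 genes were Prkca, Prkcb, Prkcd, Prkce, Prkch, Prkcq, Prkci, Prkcz and Prkd1, chosen by name from the 19937 genes measured, with earlier results of these data known. The question was whether the fall of Prkca was shared by other isoforms. Of the 9 genes, 3 were called lower in Sox17-GOF islets: Prkca and Prkcb, each 1.68-fold, and Prkd1, 1.33-fold. Among 15 alternative ways of processing, the call held in 14 for Prkcb, in 7 for Prkca and in 6 for Prkd1. The other 6 genes did not pass the test in either direction.

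RNA came from whole islets of 16-week-old mice labelled C57BL/6, 3 control samples carrying Ins2-rtTA and 3 Sox17-GOF samples carrying Ins2-rtTA and tetO-Sox17. Both groups received doxycycline for 24 hours, and by the labels they share the Ins2-rtTA transgene as well; a figure legend of the study gives tetO-Sox17 mice as controls for another experiment, and the labels were followed here. Ins2-rtTA puts the doxycycline-dependent activator under an insulin promoter, so Sox17 is induced in insulin-producing cells while the RNA is that of every cell in the islet; each sample was hybridised to 1 Affymetrix Mouse Gene ST array. The methods describe the samples as independent biological triplicates, and the strain as an outbred stock crossed back to C57BL/6. The deposited log2 signals had array medians of 6.31 to 6.41, and arrays of the same group correlated at 0.984 to 0.991 across probe sets. Sox17 itself read 5.50, 5.72 and 5.71 in control and 6.35, 6.22 and 6.36 in Sox17-GOF islets, 1.59-fold higher (log2 fold change 0.67, SE 0.09, adjusted p = 0.00876), so each Sox17-GOF array stood above each control array.

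PKC isoforms are serine/threonine kinases that carry signals from receptors at the plasma membrane. The conventional isoforms (Prkca, Prkcb) answer to calcium and diacylglycerol together, the calcium-independent class (Prkcd, Prkce, Prkch, Prkcq) to diacylglycerol alone, and the atypical isoforms (Prkci, Prkcz) to neither, acting instead through protein partners. PKD enzymes such as the product of Prkd1 bind diacylglycerol and are switched on by PKC. In β cells, Gq-coupled receptors and glucose raise diacylglycerol and calcium, and PKC and PKD take part in the amplification of insulin secretion.

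The promoters of the genes that fell are shown because these 3 isoforms were called lower. Each line holds the 250 bases before the RefSeq start of transcription (build GRCm38.p6), read 5′ to 3′ on the gene's strand, with capitals marking the GC box GGGCGG or its reverse complement CCGCCC, where Sp1-family factors can bind. Prkca lies on the minus strand (chr11:108343889-108344138), Prkcb on the plus strand (chr7:122288875-122289124) and Prkd1 on the minus strand (chr12:50649250-50649499).
Prkca: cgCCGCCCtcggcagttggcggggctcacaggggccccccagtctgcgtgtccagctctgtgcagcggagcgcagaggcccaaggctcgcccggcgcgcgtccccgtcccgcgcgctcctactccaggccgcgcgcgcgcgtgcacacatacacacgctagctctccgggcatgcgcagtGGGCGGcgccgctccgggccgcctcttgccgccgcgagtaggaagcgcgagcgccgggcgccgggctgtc
Prkcb: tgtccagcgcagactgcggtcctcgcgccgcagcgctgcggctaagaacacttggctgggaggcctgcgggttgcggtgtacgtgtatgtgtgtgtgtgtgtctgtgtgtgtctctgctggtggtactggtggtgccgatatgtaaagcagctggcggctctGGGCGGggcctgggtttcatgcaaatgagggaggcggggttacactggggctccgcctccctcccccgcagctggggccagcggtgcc
Prkd1: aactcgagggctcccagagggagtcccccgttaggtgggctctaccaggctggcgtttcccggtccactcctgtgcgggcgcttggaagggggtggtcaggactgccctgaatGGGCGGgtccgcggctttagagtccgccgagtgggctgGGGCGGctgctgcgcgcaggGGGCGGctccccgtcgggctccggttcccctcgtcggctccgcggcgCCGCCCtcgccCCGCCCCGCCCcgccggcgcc
The GC content of these windows was 76.8% for Prkca, 65.2% for Prkcb and 75.6% for Prkd1, against a median of 52.4% over 32851 promoter windows of the same length. Prkca held 2 GC boxes, Prkcb held 1 and Prkd1 held 6, of which some overlap, while 32.7% of all windows held a GC box on either strand. The SOX core ACAAT, or ATTGT on the other strand, was not found in these 3 windows; 27.7% of all windows held it. The promoter set used here held 10 windows of 7 isoforms (Prkca, Prkcb, Prkcd, Prkcq, Prkci, Prkcz and Prkd1) and none of Prkce or Prkch. Among these 10 windows, 2 held the SOX core, 1 of Prkcd and 1 of Prkci. GC boxes were not particular to the isoforms that fell. The windows of Prkcd held 0 and 4 (GC content 50.8% and 67.6%), that of Prkcq 1 (72.4%) and that of Prkci 1 (56.4%). The windows of Prkcz held 2, 0 and 2 (56.8%, 58.0% and 70.8%). These letters say nothing on whether a factor was bound.

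Among the 9 isoforms, 3 were called lower, or 33.3%, where 2.32% of the 22961 named probe sets were lower at the same threshold (limma with Benjamini-Hochberg adjustment, adjusted p under 0.05). Part of this share was set in advance, since the study picked Prkca for its fall on these arrays and had Prkcb on its list of changed genes. None was called higher, where 2.61% of probe sets were. The groups did not overlap for 4 isoforms (Prkca, Prkcb, Prkd1 and Prkcd), against 24.9% of named probe sets with no overlap in either direction. The median log2 fold change of the isoforms was -0.01, the same to 2 decimals as that of all genes. Each isoform exceeded 4.63, the 20th percentile of all signals, in at least 1 group. With 3 arrays against 3, the exact two-sided permutation test cannot give a p below 0.1, which was its value for each of these 4 isoforms.

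**Figure D1:**
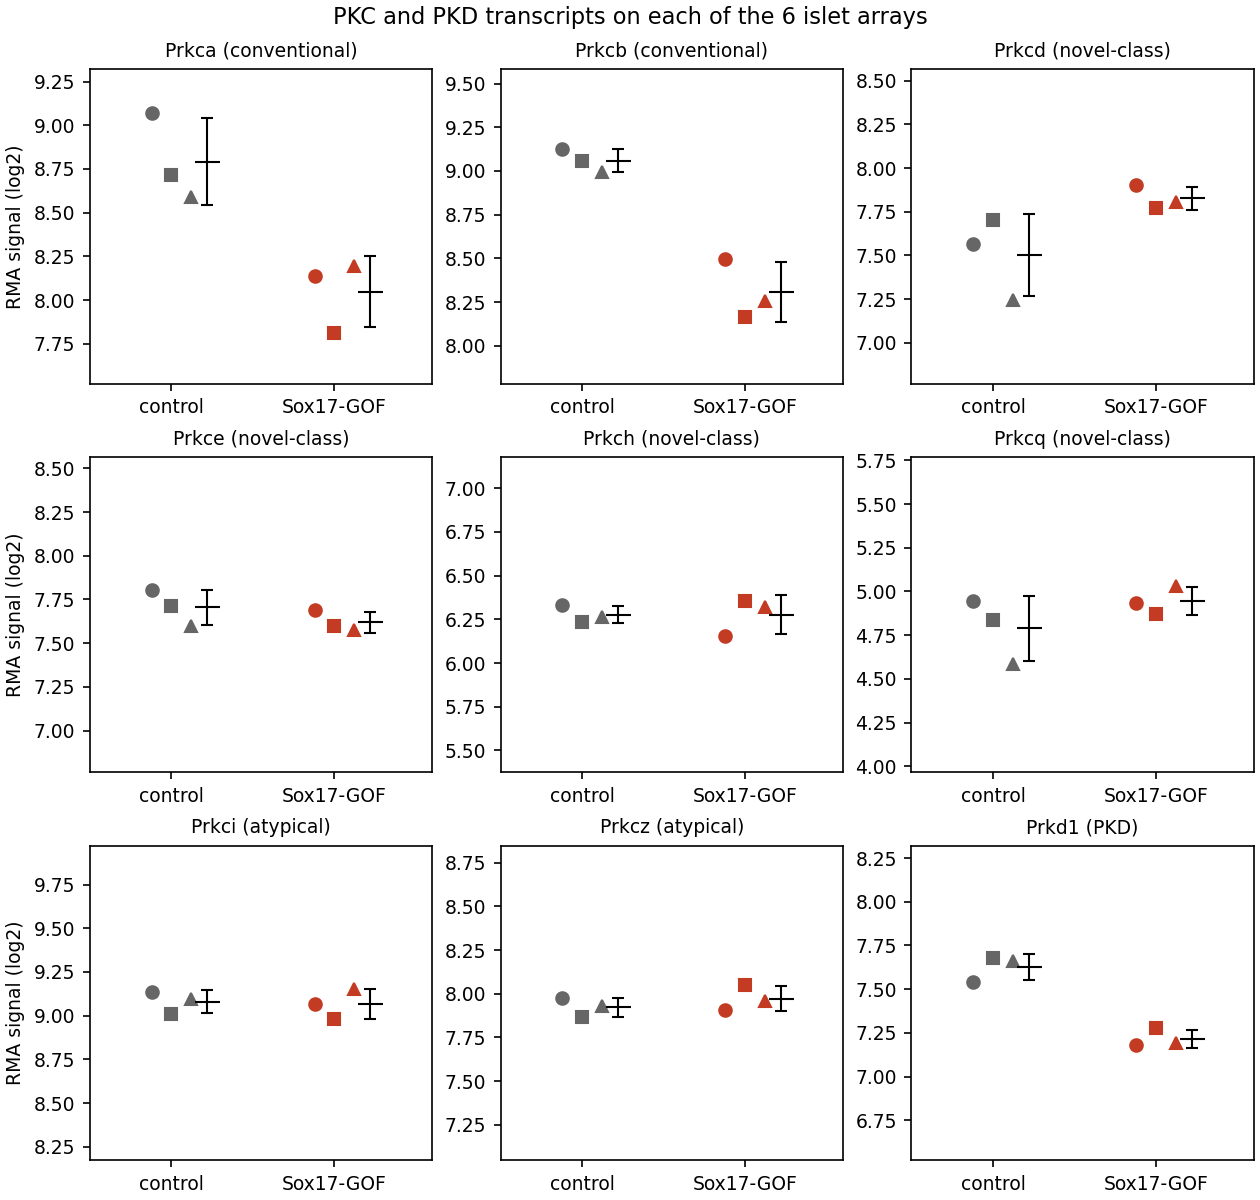
RMA signal (log2, vertical axes of equal length but different origin) of each isoform on each of the 6 arrays; circles, squares and triangles are replicates 1, 2 and 3, and bars are the mean ± SD of 3 arrays. Prkca, Prkcb and Prkd1 lie lower on each Sox17-GOF array than on each control array, and Prkcd lies higher.

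Prkca, which encodes PKCα, read 9.07, 8.71 and 8.59 on the control arrays and 8.14, 7.81 and 8.20 on the Sox17-GOF arrays. Its mean log2 signal was 8.79 ± 0.25 in control and 8.05 ± 0.21 in Sox17-GOF islets (SD, n = 3), a log2 fold change of -0.74 (SE 0.15, 95% interval -1.10 to -0.39, limma adjusted p = 0.0355). The lowest control array thus stood above the highest Sox17-GOF array, but the control arrays spread over a wide range. The call was lost on leaving out control replicate 1 (log2 fold change -0.60, limma adjusted p = 0.0943), control replicate 2 (-0.78, 0.107), control replicate 3 (-0.84, 0.0549), Sox17-GOF replicate 1 (-0.79, 0.0651) or Sox17-GOF replicate 2 (-0.63, 0.0952), and held without Sox17-GOF replicate 3 (-0.82, 0.0445). The study picked Prkca on these same arrays, so its value here is not independent evidence of its direction. Apart from the arrays, the study reports Prkca as significantly lower by quantitative RT-PCR after Sox17 overexpression. Those measurements were not examined here, and the paper does not say whether they came from other RNA samples.

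Prkcb, which encodes the PKCβ splice forms, read 9.12, 9.06 and 8.99 in control islets and 8.50, 8.16 and 8.26 in Sox17-GOF islets. The control arrays lay close together and well above all of the Sox17-GOF arrays, with means of 9.06 ± 0.07 and 8.31 ± 0.17 (SD, n = 3). Its log2 fold change was -0.75 (SE 0.10, 95% interval -0.99 to -0.51, limma adjusted p = 0.00859), and the call held without any single array, with adjusted p-values of up to 0.0461. Prkcb is on the study's own list of changed genes from these arrays, which had been read beforehand. Prkcb is also expressed in B cells. Of the 4 measured B cell markers 2 were called lower, beside 2.32% of named probe sets. These were Cd79a (log2 fold change -0.54, limma adjusted p = 0.0158) and Cd79b (-0.79, adjusted p = 0.0441), both parts of the B cell receptor. Ms4a1 (-1.02, adjusted p = 0.14) and Blk (-0.18, adjusted p = 0.285) did not pass. The log2 of the summed signal of these 4 markers ran from 7.69 to 8.10 in control and from 7.26 to 7.37 in Sox17-GOF islets; each marker exceeded the 20th percentile in at least 1 group. The part of B cells in the Prkcb result was not tested. In RNA of whole islets, fewer cells of a type and less RNA per cell cannot be told apart.

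The calcium-independent isoforms gave no call. Prkcd, which encodes PKCδ, went the other way from Prkca, at 7.57, 7.70 and 7.24 in control and 7.90, 7.77 and 7.81 in Sox17-GOF islets. Each Sox17-GOF array was above each control array, yet the log2 fold change of 0.32 (SE 0.12, 95% interval 0.04 to 0.61) did not pass limma's threshold (adjusted p = 0.208). Control replicate 3 was the lowest of the 6 arrays, and without it the value was 0.19 (adjusted p = 0.38).

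Prkce, which encodes PKCε, read 7.80, 7.71 and 7.60 in control and 7.69, 7.60 and 7.57 in Sox17-GOF islets. These ranges overlapped, and the log2 fold change of -0.08 had a 95% interval of -0.28 to 0.11 (adjusted p = 0.655), which leaves out a fall as large as that of Prkca's estimate. Prkch, which encodes PKCη, read 6.33, 6.23 and 6.26 against 6.15, 6.36 and 6.32, a log2 fold change of 0.00 with a 95% interval of -0.19 to 0.20 (adjusted p = 0.998). Prkcq, which encodes PKCθ and is best known from signalling of the T cell receptor, read 4.94, 4.84 and 4.58 against 4.94, 4.87 and 5.03, close to the 20th percentile of all signals, and its log2 fold change was 0.16 (95% interval -0.10 to 0.41, adjusted p = 0.505).

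A further probe set of Prkch did not behave like the one that stands for the gene. It read 5.40, 6.01 and 6.57 in control and 4.64, 5.43 and 5.06 in Sox17-GOF islets, with overlapping ranges and a log2 fold change of -0.95 (SE 0.30, 95% interval -1.66 to -0.25, limma adjusted p = 0.137). The probe sets of Prkch thus disagreed in size of change, and neither passed the test. The further probe set of Prkcz read 6.73, 6.89 and 7.10 against 6.88, 7.00 and 6.34 (log2 fold change -0.16, adjusted p = 0.701). Both were looked at after the values of the chosen probe sets were known.

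The atypical isoforms, which work with Par3 and Par6 in cell polarity, were close to level. Prkci, encoding PKCι, read 9.14, 9.01 and 9.10 in control and 9.07, 8.98 and 9.15 in Sox17-GOF islets, a log2 fold change of -0.01 (95% interval -0.20 to 0.18, adjusted p = 0.958). For Prkcz, encoding PKCζ, the signals were 7.97, 7.87 and 7.93 against 7.91, 8.05 and 7.96, a log2 fold change of 0.05 (95% interval -0.13 to 0.23, adjusted p = 0.795). Groups overlapped for both genes, and both intervals exclude a change of the size estimated for Prkca.

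Prkd1 encodes PKD1, a kinase of the trans-Golgi network that helps vesicles leave for the cell surface. It read 7.54, 7.68 and 7.66 in control and 7.18, 7.28 and 7.19 in Sox17-GOF islets, means of 7.63 ± 0.07 and 7.22 ± 0.05 (SD, n = 3). The log2 fold change was -0.41 (SE 0.08, 95% interval -0.59 to -0.23, limma adjusted p = 0.0266), a fall with little spread in either group. It was less secure than that of Prkcb: the adjusted p was 0.0586, 0.113 and 0.0925 without control replicates 1, 2 and 3 and 0.0641, 0.0589 and 0.0589 without Sox17-GOF replicates 1, 2 and 3, with log2 fold changes of -0.39 to -0.45.

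**Figure D2:**
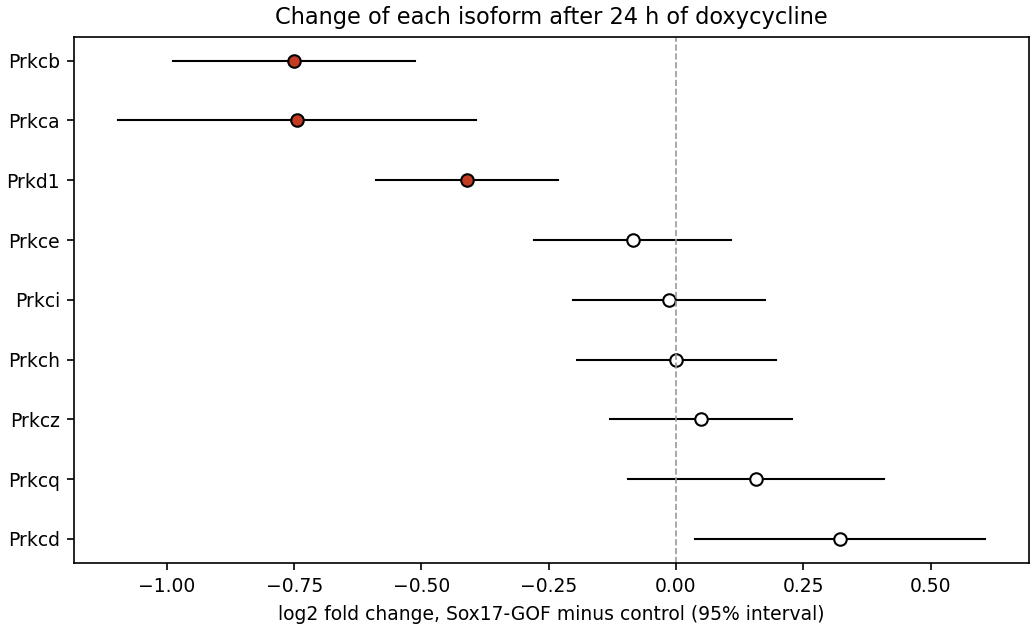
Log2 fold change (Sox17-GOF minus control, horizontal axis) of each isoform with its 95% limma interval; filled points passed the adjusted threshold, open points did not. Prkcb, Prkca and Prkd1 lie below 0, from -0.75 to -0.41, and the open points run from -0.08 for Prkce to 0.32 for Prkcd.

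Whether the isoforms differed in their change was tested on the difference between Prkca and each other isoform within an array. Prkca was picked for its fall on these same arrays, so a gap to any isoform that stayed level was largely set in advance. Prkca's log2 fold change was below that of Prkcd by -1.07 (95% interval -1.53 to -0.60, limma adjusted p = 9.33e-05), the widest gap among the 8 pairs. Next came Prkcq at -0.90 (-1.36 to -0.44, adjusted p = 0.000864), Prkcz at -0.79 (-1.26 to -0.33, adjusted p = 0.00231), Prkch at -0.74 (-1.21 to -0.28, adjusted p = 0.00352), Prkci at -0.73 (-1.20 to -0.27, adjusted p = 0.00398) and Prkce at -0.66 (-1.12 to -0.20, adjusted p = 0.00785). Prkca and Prkcb differed by 0.01 (-0.46 to 0.47, adjusted p = 0.979), and Prkca and Prkd1 by -0.33 (-0.80 to 0.13, adjusted p = 0.165), so a difference of up to the size of those intervals is not excluded. Thus 6 of 8 pairs passed, but 90.9% of all named probe sets also differed from Prkca in this fit, so the count is nothing particular to the isoforms. With weighted arrays the Prkd1 difference was -0.09, on leaving out control replicate 1 it was -0.15, and on leaving out Sox17-GOF replicate 2 it was -0.19, with no call in any of these, and the Prkch difference was not called with the gene's probe sets averaged (-0.27, adjusted p = 0.252). All pairs share the signal of Prkca, so the tests depend on each other, and the fit gave each pair a standard error of 0.237. That error was pooled over all probe sets and treated as known, although every row holds the same Prkca values from 6 arrays. The limma adjusted p-values of these pairs therefore overstate the evidence. With each pair's own variance (the methods' t-test), the adjusted p of those 6 lay between 0.0479 and 0.0487, and the interval was -0.40 to 0.41 against Prkcb and -0.99 to 0.32 against Prkd1.

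Against Prkcb, a reference added after the values were seen, 7 of 8 isoforms differed, beside 95.9% of all probe sets. The 1 that did not was Prkca. The difference between Prkcb and Prkd1 was -0.34 (95% interval -0.66 to -0.02, limma adjusted p = 0.0422), and was not called with the pair's own variance (-0.75 to 0.07, adjusted p = 0.0863).

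**Figure D3:**
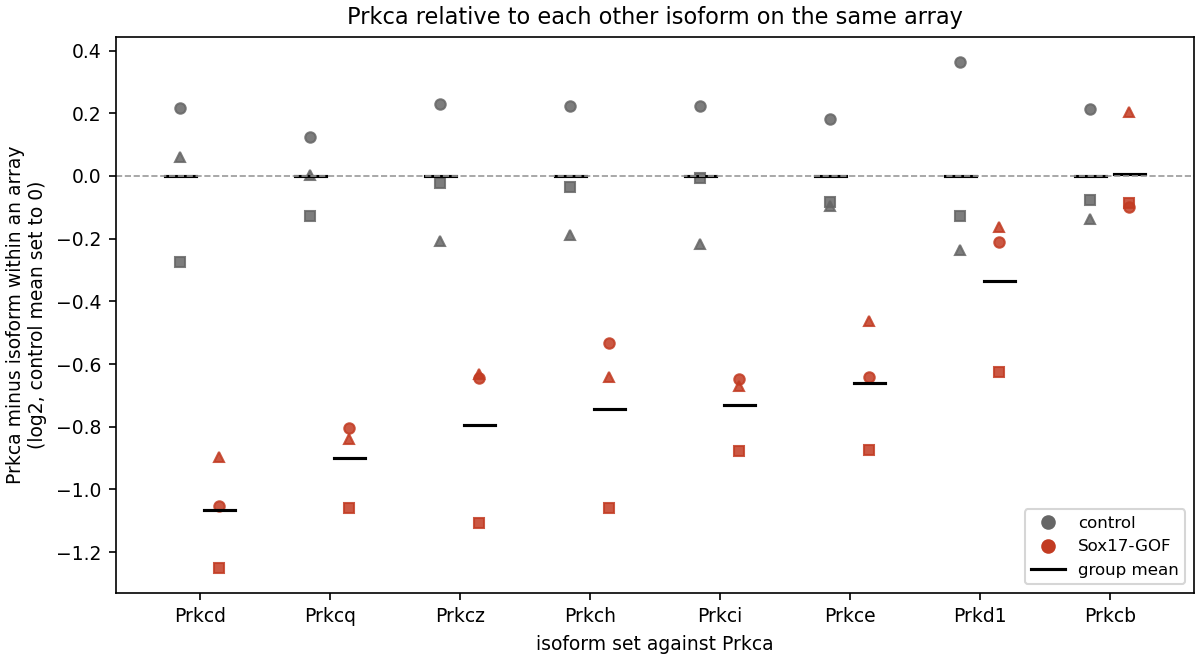
Prkca minus each other isoform on the same array (log2, vertical axis), with the mean of the control arrays set to 0 for each pair; points are arrays, with circles, squares and triangles for replicates 1, 2 and 3, and lines are group means. The Sox17-GOF means run from -1.07 against Prkcd to -0.33 against Prkd1 and 0.01 against Prkcb, and the groups overlap in those last 2 pairs alone.

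Genes that followed Prkca most closely were ranked by the root mean square difference between their deviations and those of Prkca from the 6-array mean, over 17549 genes. The nearest were Clic4, an intracellular chloride channel family protein, at 0.103 on the log2 scale, Tsga10 at 0.111, Tmem215 at 0.114, Phactr4, a regulator of protein phosphatase 1 and actin, at 0.115, and A1cf, a cofactor of apolipoprotein B mRNA editing, at 0.117. Their log2 fold changes were -0.73, -0.66, -0.88, -0.80 and -0.86. Prkcb ranked 18th at 0.146 and Prkd1 ranked 1026th at 0.289, and Prkcd ranked 15649th. The 6 arrays behind these ranks fall into 2 groups, so a rank holds both the change between groups and the spread within them.

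The signalling genes around the isoforms were taken from 9 lists with 85 measured members, of which 4 fell, 4 rose and 77 did not pass the test; their median log2 fold change was 0.00, beside -0.01 for all genes, of which 487 fell and 552 rose among 19937. The relatives of the isoforms, Prkd2, Prkd3, Pkn2 and Pkn3, gave no call, with log2 fold changes of -0.17 to 0.07. Among them, the paralogs of Prkd1 were at -0.17 for Prkd2 (adjusted p = 0.42) and 0.03 for Prkd3 (adjusted p = 0.925), and their differences from Prkd1 were not tested.

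Upstream of diacylglycerol, 3 of 9 Gq proteins and receptors changed, and not in 1 direction: 2 were called lower and 1 higher, beside 2.32% and 2.61% of named probe sets. Ffar1, the free fatty acid receptor of β cells, fell from 7.34, 7.01 and 7.07 to 6.65, 6.44 and 5.97 (log2 fold change -0.79, SE 0.18, adjusted p = 0.0494). Chrm3, the muscarinic receptor through which acetylcholine acts on β cells, fell from 7.87, 7.68 and 8.05 to 7.41, 7.37 and 7.22 (-0.53, SE 0.11, adjusted p = 0.0372). In contrast P2ry1, a receptor for ADP, rose from 7.48, 7.51 and 7.71 to 8.43, 8.18 and 8.02 (0.64, SE 0.12, adjusted p = 0.0281). The groups of these 3 receptors did not overlap, as is likely for called genes, so this adds nothing to the calls. Groups also did not overlap for Casr (-0.54, limma adjusted p = 0.0593) and Avpr1b (0.29, limma adjusted p = 0.246), which were not called. Of all named probe sets, 24.9% had no overlap in either direction. The list's median was 0.02.

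The enzymes that make and remove diacylglycerol did not pass the test. None of 12 phospholipases C was called (log2 fold changes of -0.19 to 0.51, median -0.02), nor was any of 8 diacylglycerol kinases (-0.19 to 0.18, median 0.00). The 10 other proteins that bind diacylglycerol gave no call either (-0.29 to 0.34, median 0.00).

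Of 9 genes of PKC maturation and shut-off, Pdpk1 alone was called, and lower, beside 2.32% of named probe sets. It encodes PDK1, which phosphorylates newly made PKC, and fell from 9.19, 9.15 and 9.23 to 8.88, 8.76 and 8.69 (log2 fold change -0.41, SE 0.08, adjusted p = 0.0302). The 9 genes ranged from -0.43 to 0.01 with a median of -0.24. Of 11 anchors and adaptors, Cavin2 alone was called, and higher, beside 2.61% of named probe sets. Cavin2, a caveolar protein that binds PKC, rose from 6.31, 6.24 and 6.16 to 6.58, 6.88 and 6.88 (0.54, SE 0.10, limma adjusted p = 0.0292). The list's median was 0.02.

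Of 12 PKC substrates 1 was called lower and 2 higher, beside 2.32% and 2.61% of named probe sets. The largest difference was that of Marcksl1, a relative of the PKC substrate MARCKS that binds actin and calmodulin, which rose from 7.22, 7.04 and 7.08 to 8.61, 8.33 and 9.22 (log2 fold change 1.61, SE 0.21, adjusted p = 0.00658). Snap25, a SNARE protein of insulin granule exocytosis, rose from 11.01, 11.00 and 11.04 to 11.65, 11.52 and 11.28 (0.47, SE 0.10, adjusted p = 0.0472). Ppp1r14b, an inhibitor of protein phosphatase 1, fell from 10.79, 10.62 and 10.80 to 10.37, 10.37 and 10.18 (-0.43, SE 0.09, adjusted p = 0.0415). The list's median was 0.30, the highest among the 9, with 9 members not called. Partners and substrates of PKD numbered 10, with no call and a median of -0.14. Signals are of mRNA and say nothing on phosphorylation of these proteins.

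**Figure D4:**
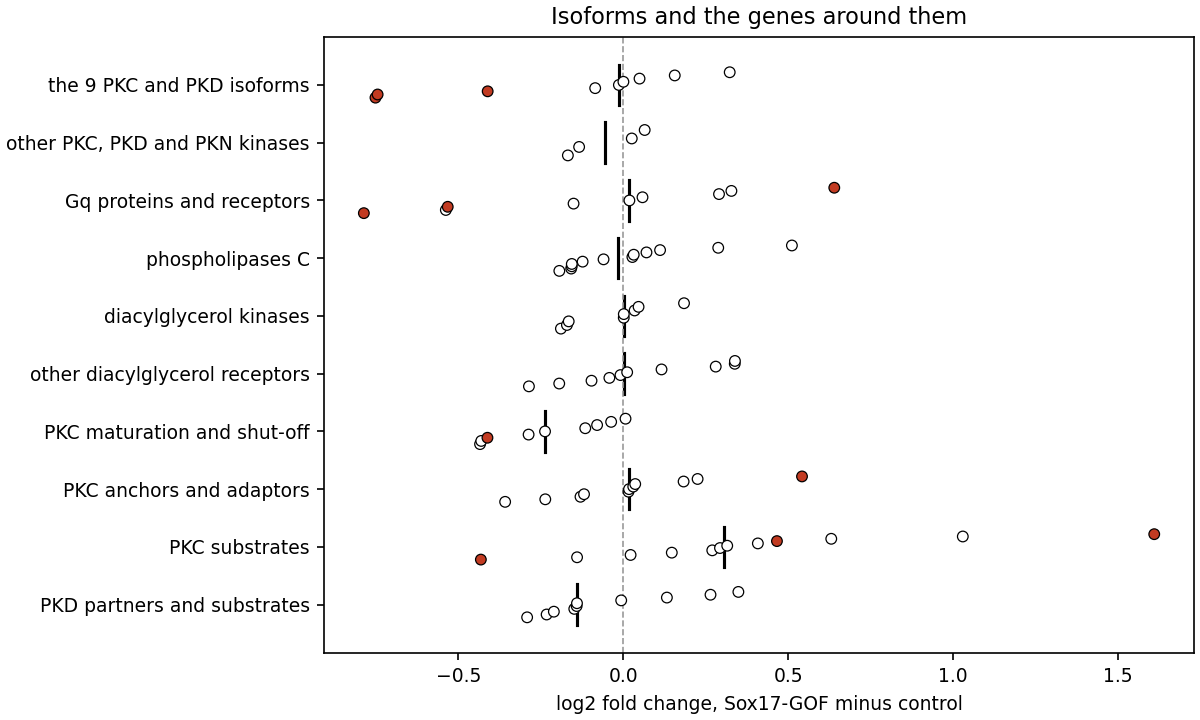
Log2 fold change (Sox17-GOF minus control, horizontal axis) of each measured gene in the isoform family and in 9 lists around it; filled points passed the adjusted threshold, open points did not, and bars are list medians. The 3 filled isoforms lie left of 0, and the filled genes of the other lists lie on both sides, up to 1.61 for Marcksl1.

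The makeup of the islets is given beside these results. Of 8 β cell markers 4 were called lower, beside 2.32% of named probe sets. These were the glucose transporter Slc2a2 (log2 fold change -1.01), G6pc2 (-0.74), Ucn3 (-1.03) and the zinc transporter Slc30a8 (-0.58), while Ins2 was at -0.01. The log2 of the summed signal of the 8 markers ran from 15.24 to 15.28 in control and from 14.90 to 14.96 in Sox17-GOF islets. The 8 endothelial markers were mixed: Kdr fell (log2 fold change -0.68), Emcn (-0.50), Flt1 (-0.43) and Tie1 (-0.17) were below 0 without a call, and Pecam1 (0.37), Cdh5 (0.27), Tek (0.23) and Plvap (0.07) were above 0 without a call, with sums of 11.57 to 11.63 against 11.30 to 11.44. No marker was called of 6 for T cells (8.21 to 8.63 against 8.04 to 8.18), 5 for leukocytes in general (8.92 to 9.87 against 8.89 to 9.09), 6 for macrophages (8.93 to 9.99 against 9.10 to 9.61), 8 for stellate cells (10.11 to 10.66 against 10.57 to 11.02), 6 for acinar cells (15.59 to 15.82 against 15.09 to 15.98), 5 for duct cells, 4 for Schwann cells or 6 for alpha, delta and PP cells (14.98 to 15.11 against 14.84 to 15.09). Of 7 genes that mark stress in handling, Egr1 alone was called, and higher, beside 2.61% of named probe sets. Egr1, an immediate early gene that PKC signalling can induce, was at 1.15 (limma adjusted p = 0.0264). The sums of these 7 genes were 9.65 to 9.90 against 9.81 to 10.51. The sums of β cell, endothelial, T cell and B cell markers did not overlap between the groups, beside 24.9% of single named probe sets. For T cells the gap was narrow, with 8.21 on the lowest control array and 8.18 on the highest Sox17-GOF array. A sum follows its brightest members, so it need not hold for each marker of a list. The part of these cell types in the changes of Prkca, Prkcb and Prkd1 was not tested.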

How the data were processed

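The authors made the deposited values by RMA, as log2 signals per probe set. Which program did so was not settled: GeneSpring according to the methods, or Affymetrix Expression Console according to the submitters' processing notes. RMA sets all arrays to the same distribution of probe intensities, so a shift common to most genes would be removed. The platform annotation gave a symbol to 22961 of 34760 probe sets (21640 with 1 symbol, 1321 with several), and the main test omits the other 11799. A gene is the single-symbol probe set that is brightest over the 6 arrays (19937 genes).

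The test was limma's (version 3.58.1, run in R 4.3.3; lmFit, then eBayes with neither trend nor covariate) on all 6 arrays, with Benjamini-Hochberg adjustment over the 22961 named probe sets at 0.05. Differences between isoforms were fitted the same way on within-array differences. Summed signals are sums of linear signals, given as log2. Precision is limited by the number of arrays. The level of 4.63 is the 20th percentile of all signals and not a measured background. Signals near it are low, and exceeding it does not show that a gene was expressed. The procedure was tested on simulated data.

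The members and lists were chosen with earlier results of these data known, as were the genes named: all 9 isoforms, Sox17, the 5 genes nearest Prkca and up to 6 called genes of each list. Beyond this, the relatives in the first list, Casr, Avpr1b, and B cell and other cell type markers are named for the results they stand beside. Each result was recomputed with eBayes following a trend on intensity, with weighted arrays, after centring on array medians or quantile normalization, over every probe set, without dim ones, with replicate number as a blocking factor, by the methods' t-test, with a gene's probe sets averaged, and with any 1 array left out. Promoter sequences are RefSeq's, from a table matched by symbol.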

Additional observations from a re-analysis of the deposited data

How the results depend on the processing

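The directions of Prkca, Prkcb and Prkd1 were the same in all 15 alternatives, the calls were not. Of the 3 isoforms called lower, 1 remained with all probe sets tested, 1 with the replicate block and 0 with the methods' t-test, which gave 71 calls in all after adjustment and unadjusted p-values of 0.0163 for Prkca, 0.00215 for Prkcb and 0.00134 for Prkd1; without single arrays the count was 1 to 2. Prkca stayed at -0.74 on the log2 scale in these 3 alternatives, with limma adjusted p-values of 0.0889 (all probe sets) and 0.0523 (replicate block) and 0.196 by the methods' t-test, and ran from -0.84 to -0.60 without single arrays. Prkcb kept its call in 14 of 15 alternatives, all but the methods' t-test (adjusted p = 0.101), and Prkd1 in 6 of 15. The 4 pathway genes called lower became 0 with all probe sets, 1 with the replicate block, 0 with the methods' t-test and 0 to 5 without single arrays. The 4 called higher became 1, 1 and 0 in the same order and 1 to 4 without single arrays. Marcksl1 kept its call in 14 of 15 alternatives, the other 7 called pathway genes in 6 or 7. The 6 differences to Prkca held in 14 of 15 alternatives; with probe sets averaged per gene that of Prkch was -0.27 (adjusted p = 0.252) and 5 remained. Testing all probe sets raises the number of tests and leaving out an array lowers the number of samples; other causes were not tested. Same-numbered arrays did not deviate together (correlations of 0.05, -0.02 and -0.04), so the values gave no sign that the numbers pair the samples. Such correlations cannot exclude a pairing.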
